A study of Schizocosa ocreata with 10 samples.

Results

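Brain mRNA of mature males was compared with that of mature females of the wolf spider Schizocosa ocreata, a species in which males court with leg ornaments and displays. The comparison rests on 5 of the 10 libraries analysed here, those labelled as adult, with mature males 2 and 3 on one side and mature females 1, 2 and 3 on the other. Each library came from the brain of 1 individual spider that was collected before its last molt, housed alone at 25°C and dissected 24 h after the molt to maturity. No treatment and no genetic change was applied to any group. The other 5 libraries came from immature spiders, 2 females and 3 males, whose time before the molt was not known. They entered the same fit and are given side by side where they bear on a mature sex difference.

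As background, an adult wolf spider male differs from a female in courtship, aggression and feeding, and sex differences in an arthropod brain can come from genes that only 1 sex switches on as well as from small shifts in widely used neural genes. Schizocosa ocreata had no reference genome in this study, so that a gene here is a cluster of assembled coding sequences and carries a name only where its sequence resembles a known protein. A gene without such a match can be a fragment, an untranslated stretch read as coding, or a sequence that spiders do not share with well-studied animals. Serine proteases of the trypsin family, digest food proteins in the gut and act in blood clotting, in immune cascades and in venoms of arthropods.

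The values were read counts per gene. Totals per mature library lay between 3481348 reads in mature female 2 and 11789754 in mature female 3, and both males had between 9620026 and 9960884. CPM means counts scaled to a common library size by the TMM method of edgeR, and a fold change is given on the log2 scale as male minus female. The SE was derived from the fold change and the F statistic and does not measure precision where a group has almost no reads. Across genes, the Pearson correlation of log2 CPM was 0.917 between the 2 males, 0.905 to 0.933 among the females and 0.905 to 0.941 between the sexes, so that the ranges within and between the sexes overlapped.

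Mature male 2 stood apart from the other libraries in a set of genes and has to be kept in mind for every male value. In this library 27 genes were at least 10 times higher than in each of the other 9 libraries, where values under 1 CPM were set to 1 CPM, and they held 0.573% of its reads. Mature male 3 had 3 such genes and the mature females 0 to 3. Immature female 2, immature male 1 and immature male 3 had more, between 38 and 47, so the number alone did not single out mature male 2, but only in mature male 2 did such genes include matches to viral proteins. For genes and lists whose value moved most without mature male 2, that value is given beside the one from all libraries.

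Of 24930 genes tested, 10 (0.0401%) differed between mature males and mature females at an adjusted p under 0.05 in edgeR's quasi-likelihood test, which allows for the uncertainty of each gene's spread. Of these, 9 (0.0361%) were higher in males and 1 (0.00401%) was higher in females. Without adjustment, 616 genes (2.47%) had a p under 0.05. The median fold change over all genes was -0.02 on the log2 scale, and the middle 90% of genes lay between -0.81 and 0.93. The same counts in a likelihood ratio test, which treats the estimated spread as known, gave 45 called genes (0.181%), 31 higher in males (0.124%) and 14 higher in females (0.0562%). DESeq2 called 57 of the 21210 genes (0.269%) for which it gave an adjusted p, 40 higher in males (0.189%) and 17 higher in females (0.0802%). All 10 genes of the quasi-likelihood test were among those called by either of the other tests.

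The 10 genes fell into 2 kinds. In the first kind were 7 genes without a match to a known protein, 6 higher in males and 1 higher in females, whose sex difference was already present in immature brains. In the second were 3 trypsin-family proteases, which had at most 9 reads in any immature library and were abundant in both mature males only. In whole brains, fewer cells of a type and less RNA per cell cannot be told apart, and this holds for every value given here.

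**Figure D1:**
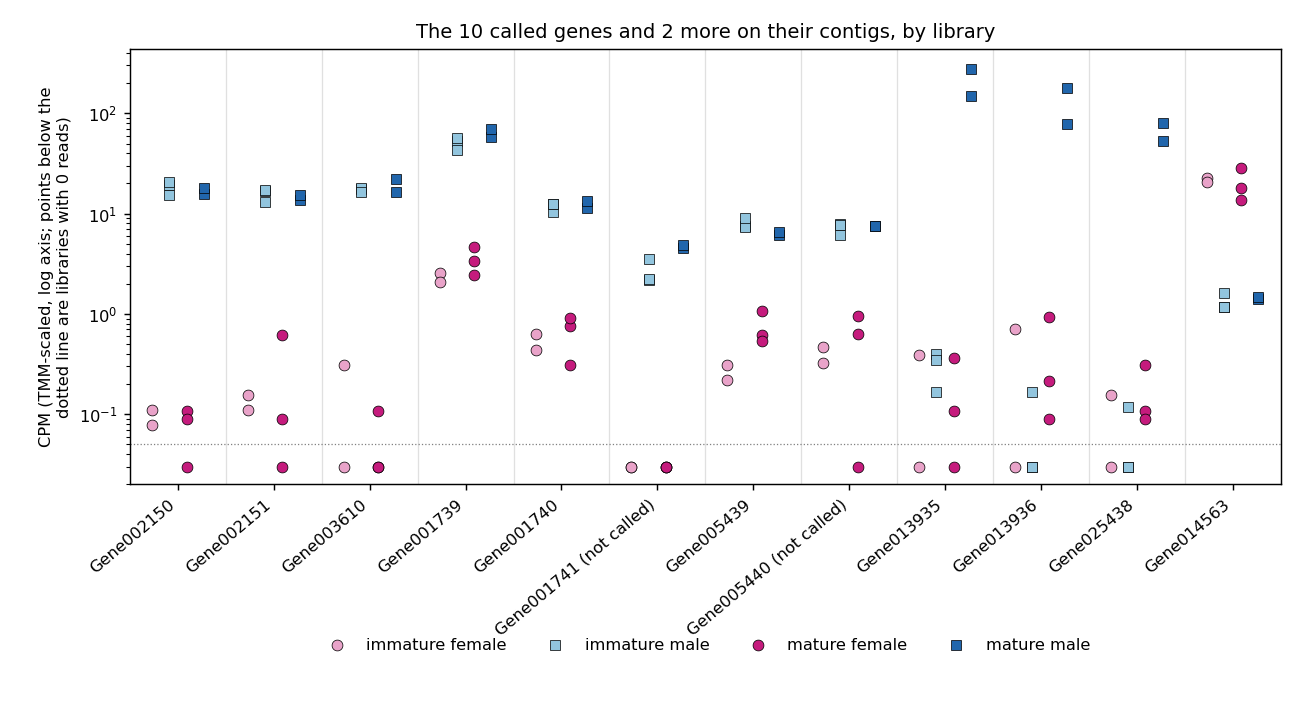
CPM of each of the 10 called genes, and of 2 further genes that share a contig with a called gene, in all 10 libraries on a log axis, with circles for females, squares for males, pale colours for immature and dark colours for mature spiders; each point is 1 library. The unmatched genes separate the sexes at both stages, whereas Gene013935, Gene013936 and Gene025438 are high only in the 2 mature males.

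Among the unmatched genes, Gene002150 had the lowest p of the whole comparison. Its counts were 1, 0 and 1 in mature females 1 to 3 and 169 and 182 in mature males 2 and 3, so that the sexes did not overlap. This was 16.8 ± 1.52 CPM (SD, n = 2) in males against 0.0658 ± 0.0576 CPM (SD, n = 3) in females, with a fitted log2 fold change of 7.43 (SE 0.44, adjusted p = 0.000801, edgeR quasi-likelihood). The ratio of the scaled reads of males to those of females was 199, with an exact 95% interval of 54.6 to 1648 that covers counting error only. Immature males had 98 to 130 reads and immature females 1 each, a log2 fold change of 7.44.

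Gene002151 lies on the same contig, Contig12843, and its coding sequence overlaps that of Gene002150 by 479 bases on the opposite strand. The library kit did not mark strand, so reads of the overlapping pair cannot be assigned to either with certainty, and both may count 1 transcript. Gene002151 had 0, 2 and 1 reads in mature females and 146 and 155 in mature males (log2 fold change 6.55, SE 0.73, adjusted p = 0.0248, edgeR quasi-likelihood). Its values followed those of Gene002150 library by library, with 85 to 113 reads in immature males and 1 or 2 in immature females. Its call was lost without mature female 1, mature female 3 or mature male 2, and without immature female 2, immature male 1 or immature male 3, with adjusted p up to 0.258 in edgeR's quasi-likelihood test.

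Gene003610 was also nearly silent in females, with 1, 0 and 0 reads in mature females against 176 and 225 in mature males. The ratio of scaled reads was 454, with an exact 95% interval of 81.1 to 17988 for counting error, since only 1 female read was seen (log2 fold change 8.41, SE 0.83, adjusted p = 0.0116, edgeR quasi-likelihood). It was higher in immature males too, at 89 to 142 reads against 4 and 0 in immature females. Its call was lost without any single mature female and without mature male 2, with adjusted p up to 0.112 in edgeR's quasi-likelihood test.

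Gene001739 differed from these in that females had reads as well. Mature females had 43, 11 and 27 reads and mature males 616 and 708, which was 3.48 ± 1.09 CPM (SD, n = 3) against 63.6 ± 8.66 CPM (SD, n = 2). Males were thus 18.5-fold higher by the scaled reads, with an exact 95% interval of 14.8 to 23.5 (log2 fold change 4.19, SE 0.32, adjusted p = 0.00299, edgeR quasi-likelihood). The immature fold change was 4.44, close to the mature one, with 271 to 367 reads in males and 19 to 33 in females. Gene001739 and Gene002150 kept their call whichever of the 10 libraries was removed and under each other setting tried.

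Gene001740 and Gene001741 share Contig12248 without overlapping, at bases 3658 to 4173 and 1507 to 1887 of the contig. Gene001740 had 7, 1 and 10 reads in mature females and 121 and 136 in mature males (log2 fold change 4.08, SE 0.38, adjusted p = 0.0078, edgeR quasi-likelihood), and its call was lost without mature female 1. Gene001741 had 0 reads in all 3 mature females and 49 and 50 in the mature males. It was the only gene with at least 10 reads in each mature male and none in any mature female, and no gene met the reverse condition. Against a floor of 3 reads over the mature females, males were 37.4-fold higher, and the exact 95% interval of the ratio, which covers counting error only, began at 29.8. Gene001741 was not called (adjusted p = 0.0864, edgeR quasi-likelihood). In immature brains it had 11, 21 and 19 reads in males and 0 in both females.

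On Contig18685, Gene005439 had 10, 2 and 6 reads in mature females and 66 and 67 in mature males (log2 fold change 3.05, SE 0.36, adjusted p = 0.0353, edgeR quasi-likelihood). Gene005440, which overlaps it by 775 bases on the opposite strand, had 9, 0 and 7 against 80 and 76 and was not called (adjusted p = 0.237, edgeR quasi-likelihood). The call of Gene005439 was the least stable of the 10, since it was lost whichever of the 10 libraries was removed, with adjusted p between 0.0544 and 0.258.

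The gene called higher in females was Gene014563, which has no match to a known protein. Mature females had 128, 59 and 315 reads and mature males 15 each, which was 20.1 ± 7.55 CPM (SD, n = 3) against 1.44 ± 0.0549 CPM (SD, n = 2). The fold change was -3.80 on the log2 scale (SE 0.41, adjusted p = 0.0204, edgeR quasi-likelihood), and males were at 0.0677 of the female level by the scaled reads (exact 95% interval 0.0452 to 0.0979). Immature females had 290 and 190 reads and immature males 6 to 14, so that each of the 10 libraries followed its sex. The call was lost without mature female 2, without either mature male and without immature male 1.

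Some further unmatched genes were called by the likelihood ratio test and DESeq2 but not by the quasi-likelihood test, and are named after their values were seen. Gene005524 had 6, 4 and 0 reads in mature females and 471 and 605 in mature males, with 269 to 446 in immature males and 37 and 3 in immature females (adjusted p = 7.1e-08 by the likelihood ratio test, 0.206 by edgeR's quasi-likelihood test). Among genes higher in females, Gene010491 had 36, 60 and 63 reads in mature females against 3 and 0 in mature males, and Gene020668 had 14, 240 and 205 against 7 and 2. Both were also higher in immature females, with at least 121 reads each against at most 1 in immature males. Others of these unmatched genes overlapped between the sexes in immature brains. Gene008885 had 1243, 443 and 1922 reads in mature females, 36 and 47 in mature males and 2 to 49 in immature libraries. Gene008886 had 656, 140 and 206 in mature females, 17 and 15 in mature males and 1 to 16 in immature libraries. The likelihood ratio test called their interaction with stage (adjusted p = 0.0356 and 0.0138).

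The second kind comprised proteases with a trypsin domain, an enzyme family that cuts proteins at a serine-based active site and is often secreted as an inactive precursor. Gene013935, whose best Swiss-Prot match is human chymotrypsin-like elastase family member 2B at 33.2% identity, carries a predicted signal peptide for secretion. It had 1, 0 and 4 reads in mature females and 1613 and 2808 in mature males, or 213 ± 89.1 CPM (SD, n = 2) in males and 0.156 ± 0.185 CPM (SD, n = 3) in females. By the scaled reads, males were 1002-fold higher with an exact 95% interval of 429 to 3087 (log2 fold change 9.94, SE 0.82, adjusted p = 0.00359, edgeR quasi-likelihood). All 5 immature libraries had between 0 and 5 reads, males and females alike.

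Gene013936, with a match to a venom protease of a bumblebee at 39.0% identity, had 2, 3 and 1 reads in mature females and 836 and 1831 in mature males (log2 fold change 8.76, SE 1.04, adjusted p = 0.0353, edgeR quasi-likelihood). Gene025438, matching human chymotrypsin-like protease CTRL-1 at 32.6% identity, had 1 read in each mature female and 569 and 819 in mature males (log2 fold change 8.84, SE 0.69, adjusted p = 0.00299, edgeR quasi-likelihood). For each of these proteases the level was higher in mature male 3 than in mature male 2. Without mature male 2, Gene013935 and Gene025438 were still called and Gene013936 was not. Gene013935 and Gene025438 lost their call without mature female 1, and Gene013936 without any single mature female or immature male.

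A further 2 trypsin-family genes had the same pattern in mature brains and were called by the likelihood ratio test but not by the quasi-likelihood test. Gene025437, best matching the fly protease persephone, which acts upstream of Toll in fly immunity, had 1, 6 and 0 reads in mature females and 579 and 547 in mature males (adjusted p = 0.396, edgeR quasi-likelihood). Gene025662, again matching CTRL-1, had 7, 1 and 10 reads against 714 and 2293 (adjusted p = 0.872, edgeR quasi-likelihood), but immature female 2 had 292 reads of it while the other immature libraries had 0 or 1. Gene025437 and Gene025438 are represented by isoforms of 1 assembled locus of mature male 2, and Gene013935 and Gene013936 by consecutively numbered contigs of the consensus assembly. Where such sequences are similar, the counting may have split or shared reads between them, so they are not certain to be separate genes.

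Of the 61 trypsin-family genes tested, 3 were called higher in males (4.92%, against 0.0361% of all genes) and none higher in females. The likelihood ratio test called 5, all higher in males. For 10 members both males were above all females, against 6.26% of all genes. The family as a whole was not shifted, since 30 members lay above 0 and 31 below, with a median log2 fold change of -0.01 beside -0.02 over all genes. Its share of reads was 0.163% and 0.195% in the mature males and 0.0797% to 0.0885% in the mature females. Gene002109, the family member with the highest CPM and a match to a transmembrane serine protease, had 2306, 595 and 1817 reads in mature females and 2802 and 4332 in males, a log2 fold change of 0.80 that was not called (adjusted p = 1, edgeR quasi-likelihood). Gut and oesophagus markers were given beside the proteases because the dissected brain may hold oesophageal tissue. Of those 77 genes none was called, their median was -0.26 and their share of reads was 0.261% and 0.180% in males and 0.152% to 0.555% in females, so the groups overlapped, and their part in the protease values was not tested.

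Some genes with a match to a known protein were not called by the quasi-likelihood test but had non-overlapping mature groups. Those with the lowest unadjusted p are given as values only. Among those higher in females, Gene011030 matches the fly proton channel OtopLc, a member of the otopetrin family that serves in sensing acids. Mature females had 2555, 174 and 1748 reads and mature males 62 and 34, and every female was above every male (log2 fold change -5.14, SE 0.81, adjusted p = 0.227, edgeR quasi-likelihood). The likelihood ratio test gave it an adjusted p of 3.2e-06, and in immature brains females were above males too, at 612 and 753 against 73 to 130 reads.

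Gene021984 and Gene000116 carry a fibrinogen domain, and the latter best matches techylectin-5A, a lectin of horseshoe crab blood that binds microbial surfaces. Gene021984 had 25, 14 and 18 reads in mature females and 2 and 3 in mature males (log2 fold change -3.44), and Gene000116 had 42, 13 and 28 against 10 and 8 (log2 fold change -2.06). Gene008555 matches chorion peroxidase, an enzyme that hardens the insect egg shell, and had 1630, 232 and 803 reads against 21 and 57 (log2 fold change -4.81). Immature female 2 also had 530 reads of Gene008555, immature female 3 had 39 and immature males had 10 to 47, so its immature groups overlapped. The likelihood ratio test called Gene021984 and Gene008555 (adjusted p = 0.0048 and 0.0221). DESeq2 called them too (adjusted p = 0.0242 and 0.00011), and neither test called Gene000116.

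The other matched genes on the female side had log2 fold changes between -2.53 and -1.96. Gene011001, matching sodium/hydrogen exchanger 9B1, had 13.3 ± 4.97 CPM (SD, n = 3) in females and 3.21 ± 0.19 (SD, n = 2) in males. Gene020731, the fly Tcs3, which modifies transfer RNA, had 18.6 ± 4.23 CPM in females and 4.77 ± 0.901 in males. Gene008043 matches the fly neurotrophin NT1, a Spätzle-type ligand of neurons, and had 32, 5 and 37 reads against 3 and 7. Gene016953 matches the reverse transcriptase of the jockey mobile element, with 8.90 ± 2.43 CPM in females and 1.84 ± 0.883 in males. None of these was called by the quasi-likelihood test of edgeR, with adjusted p between 0.872 and 1. The likelihood ratio test called Gene011001 and Gene016953 (adjusted p = 0.0275 and 0.0246). DESeq2 called both (adjusted p = 0.0054 and 0.0195) and also Gene020731 (adjusted p = 0.0487).

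**Figure D2:**
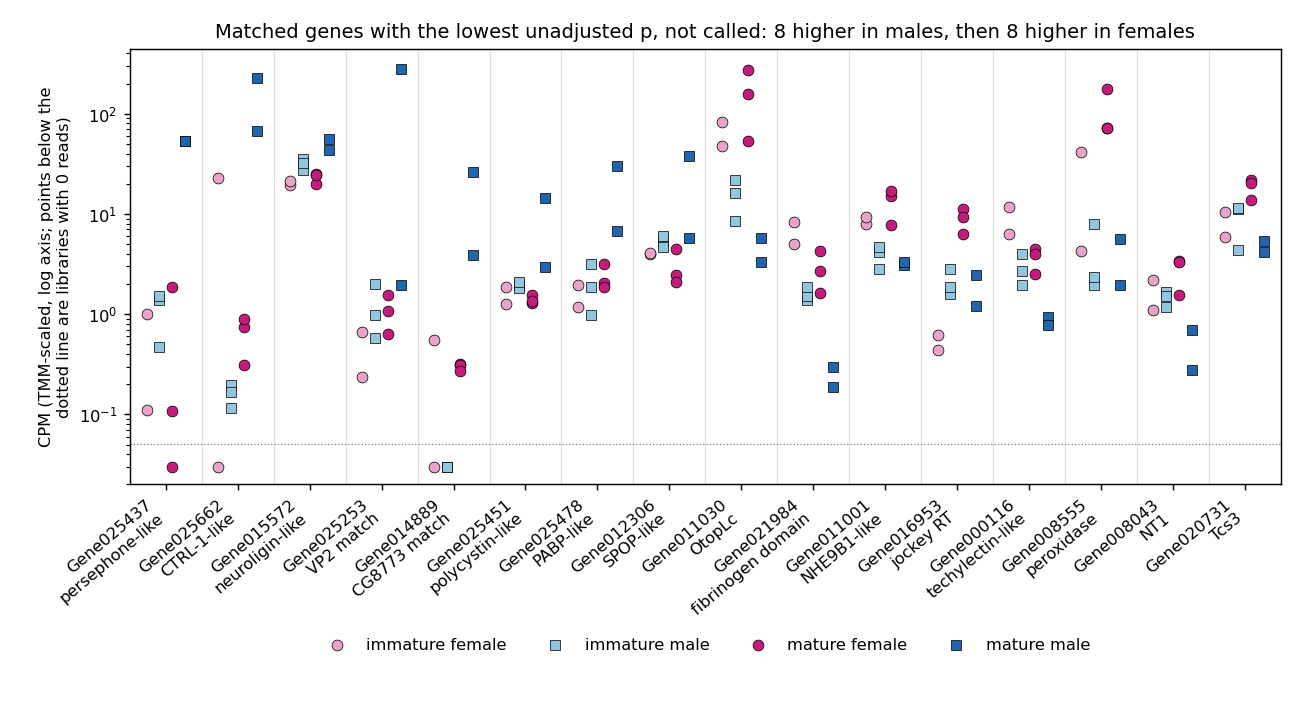
CPM in all 10 libraries on a log axis for the 16 matched genes with the lowest unadjusted p that were not called and whose mature groups did not overlap, 8 higher in males on the left and 8 higher in females on the right; each point is 1 library. The spread between the 2 mature males is wide for most of the genes on the left and narrower for the persephone-like and the neuroligin-like gene.

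On the male side, Gene015572 had the smallest SE of the 8 matched genes given. It matches human neuroligin-4 and fly Nlg3, adhesion proteins of the postsynaptic side of a synapse. Its counts were 233, 64 and 274 in mature females and 464 and 571 in mature males, or 23.1 ± 2.99 CPM (SD, n = 3) against 49.7 ± 9.15 (SD, n = 2). The log2 fold change of 1.10 (SE 0.24) was not called by the quasi-likelihood test (adjusted p = 1) or by the likelihood ratio test of edgeR (adjusted p = 0.428), and DESeq2 gave an adjusted p of 0.0414. In immature brains the log2 fold change was 0.63.

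Of the other male-side genes, Gene025253, Gene025451, Gene025478 and Gene012306 were highest in mature male 2. Gene025253, a viral match taken up again with the other viral matches, had 2996 reads in mature male 2, 20 in mature male 3 and 5 to 10 in the mature females, and its log2 fold change went from 7.12 with all libraries to 0.94 without mature male 2. Gene025478 resembles a polyadenylate-binding protein, with 322 reads in mature male 2, 69 in mature male 3 and 6 to 35 in the mature females. Gene012306 resembles the speckle-type POZ protein, an adaptor that marks proteins for degradation, with 404, 59 and 8 to 42 reads in the same order. Gene025451 resembles a polycystin, with 153, 30 and 5 to 15 reads. Mature male 3 was thus above every mature female in each of these, but by a smaller margin than mature male 2. Without mature male 2 the log2 fold change went from 2.93 to 1.52 for Gene025478, from 2.83 to 0.93 for Gene012306 and from 2.64 to 1.11 for Gene025451. Gene014889, matching the fly gene CG8773, went the other way with 42 reads in mature male 2 and 264 in mature male 3. With all libraries, the likelihood ratio test and DESeq2 called Gene025253, Gene025478, Gene012306 and Gene014889 but not Gene025451.

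The genes that stood out in mature male 2 were looked at after their values were seen. Of the 27 genes, 21 were represented by a sequence assembled from that library itself, and 15 had a match to a known protein. The highest count was that of Gene013843, matching the fly zinc finger gene Zn72D, with 10256 reads in mature male 2 and 39 in mature male 3, and 28 to 48 in the mature females. Gene024962, a leucine-rich repeat protein resembling Slit, had 7854 reads against 12 in mature male 3. Gene013845, resembling dynamin, had 4588 against 125.

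Among the 27 genes, 5 matched proteins of Colorado tick fever virus and 1 matched a phlebovirus. All genes matching Colorado tick fever virus, Uukuniemi virus or Toscana virus were then summed. They were 14 in number, and 7 passed the filter on low counts. The 6 genes whose best match is a protein of Colorado tick fever virus, a virus with a segmented double-stranded RNA genome, together held 16220 reads in mature male 2 (0.163% of the library) and 22 to 85 reads in each other library. The 8 genes matching the phleboviruses Uukuniemi and Toscana, which have segmented single-stranded RNA genomes, held 2010 reads against 8 to 33. The remaining 41 genes with a viral match, by contrast, held 0.0659% of the reads in mature male 2 and 0.0417% to 0.0597% in the others. These 41 include a further phlebovirus match, Gene002256, which was read in every library. It had 620 reads in mature male 2, 354 in mature male 3 and 497, 160 and 203 in mature females 1 to 3. Other matched genes among the 27 had varied best matches, such as argonaute (Gene025310, 136 reads against 1 in mature male 3), ankyrin-repeat protein BCL3 (Gene025394, 1880 against 12) and serum amyloid A (Gene012016, 1263 against 5), and Gene012994 has an interferon regulatory factor domain (813 against 28).

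**Figure D3:**
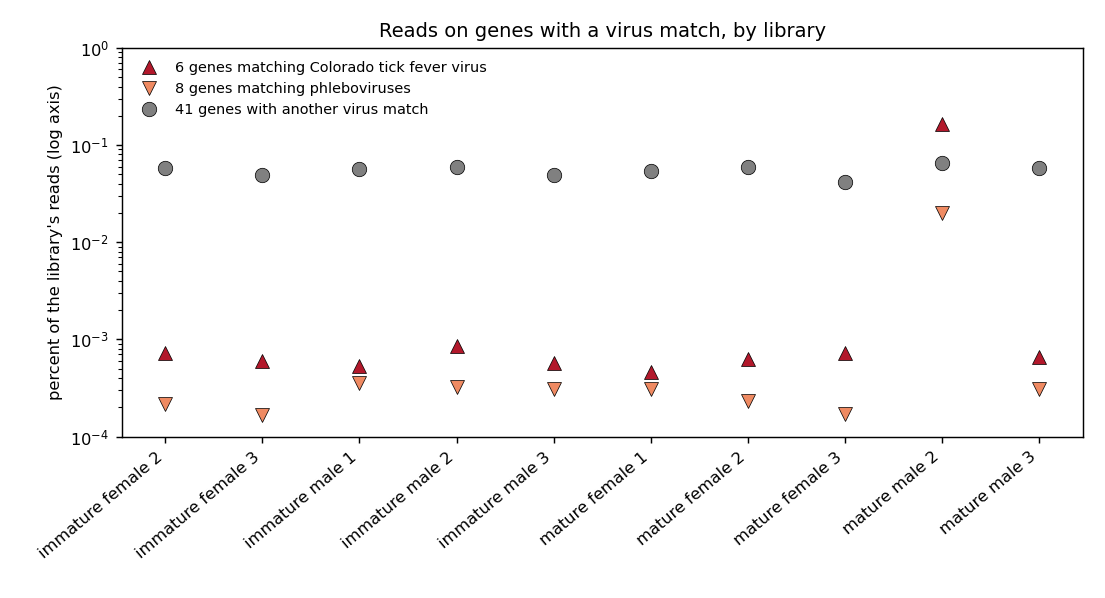
Percent of each library's reads, on a log axis, on genes whose best match is a viral protein, in 3 groups of genes; each point is 1 library. The 6 genes matching Colorado tick fever virus reach 0.163% in mature male 2, and the 8 genes matching the phleboviruses Uukuniemi and Toscana reach 0.0202%. Both groups stay under 0.001% in each other library. A further phlebovirus match, Gene002256, is counted with the other virus matches.

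Mature male 2 weighed on the counts of calls. Of the 31 genes called higher in males by the likelihood ratio test, 10 were at least 10 times higher in mature male 2 than in mature male 3. The same held for 2 of the 14 genes called higher in females, but each had only 3 reads in mature male 2 and 0 in mature male 3. It held for 496 of the 24930 genes tested. No minimum of reads was set here, so the 496 can include genes with very few reads. With mature male 3 left out, so that mature male 2 alone stood for the males, the quasi-likelihood test called 63 genes, 61 of them higher in males, and 8 of these were among the 10 called with all libraries. With mature male 2 left out it called 6, of which 5 were among the 10. In both cases the lone male was assumed to vary like the other groups. Without mature female 1, 3 genes remained.

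**Figure D4:**
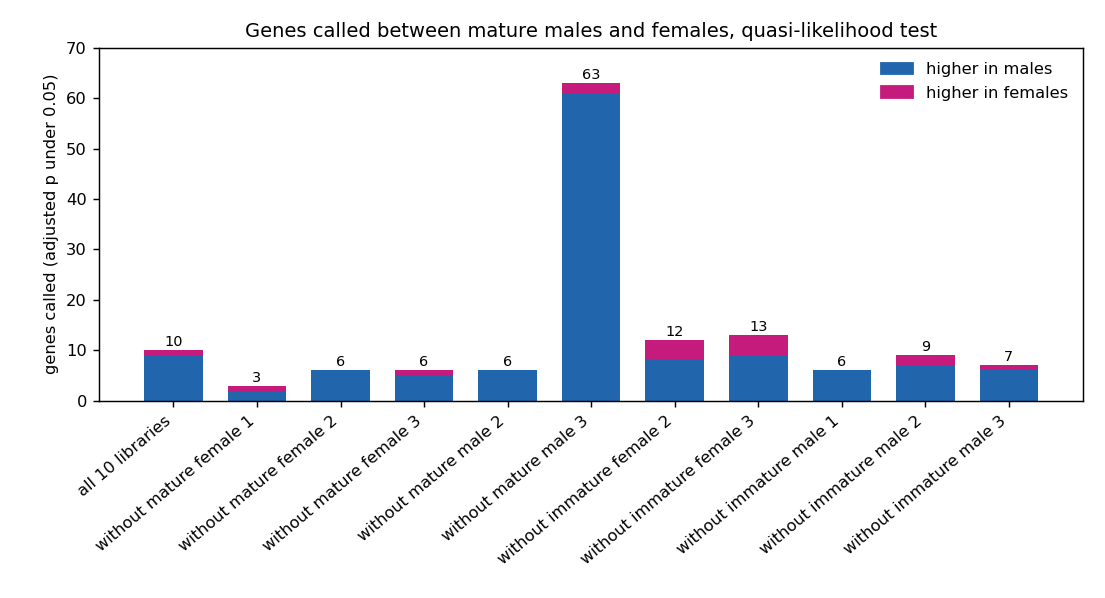
Number of genes called between mature males and mature females by the quasi-likelihood test with all 10 libraries and with each library left out, as stacked bars that start at 0, blue for genes higher in males and pink for genes higher in females. The count is 10 with all libraries, 3 without mature female 1 and 63 without mature male 3.

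Lists of genes with known roles were described by their counts and medians. Among genes for sex determination and dosage compensation, 17 were tested and none was called, with a median log2 fold change of -0.12. The member with the lowest p was Gene018388, a DM-domain gene best matching fly dmrt99B and chicken DMRT1. Transcription factors with a DM domain direct male development in many animals. It had 32, 9 and 13 reads in mature females and 76 and 64 in mature males, so the groups did not overlap (log2 fold change 1.46, SE 0.47, adjusted p = 1, edgeR quasi-likelihood), and in immature brains the fold change was 0.51. The fly splicing factor tra2 (Gene010568) lay at 34.8 ± 1.31 CPM (SD, n = 2) in males and 31.1 ± 2.82 (SD, n = 3) in females, and the match to Sxl (Gene014059) at 22.3 ± 1.40 and 21.3 ± 5.56. The Swiss-Prot match of Gene014059 is another protein, zinc finger CCHC-type and RNA-binding motif-containing protein 1 at 59.8% identity, so Sxl is only its closest fly hit. The gene matched to fru (Gene009050) had 94.1 ± 0.737 CPM in males and 145 ± 75.2 in females, but its Swiss-Prot match is another zinc finger protein, so the fly name is only the closest hit. Genes matching the fly dosage compensation proteins msl-2 (Gene020649) and msl-3 (Gene023888 and Gene025084) were lower in both males than in each female. Their log2 fold changes of -0.65, -0.75 and -0.63 were not called, and they are named after their values were seen. Over the 17 genes of the list, both males were below all females for 4 and above them for 2. The shares over all genes tested were 7.65% and 6.26%.

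None of the lists for peptides, amines and neuron markers had a called gene. Of 20 genes for neuropeptides and peptide hormones, 19 lay below 0 (52.2% of all genes tested did), with a median of -0.41. The insulin-like peptide Gene003574, chosen like bursicon and Gad1 after its values were seen, had 137, 7 and 341 reads in mature females and 2 and 193 in mature males. Spiders of the same sex thus differed widely in this gene, which does not describe the spread of the other members. The ion transport peptide Gene008241, a relative of crustacean hyperglycemic hormone, had 44, 7 and 39 against 4 and 19 and was the member with the lowest p. Bursicon, the hormone that hardens the new cuticle, had 56, 149 and 712 reads in mature females and 258 and 282 in mature males (Gene010687), within the female range. Without mature female 3, the median of the list was 0.08, so its direction rested on that library. Neuron markers had a median of -0.24, with 51 of 69 below 0, which was -0.04 without mature female 3 and -0.40 without mature female 1. The glutamate decarboxylase Gad1 (Gene010604), which makes GABA, had 2512, 1755 and 10348 reads in females and 3924 and 6709 in males. The 22 genes for the synthesis and transport of biogenic amines had a median of -0.06, or 0.24 without mature female 3, and Tbh (Gene008946), which makes octopamine, lay at 92.3 ± 60.1 CPM in females and 69.9 ± 19.1 in males.

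Genes of hormone response, timing and sensing did not pass the test either. Of 72 genes of the ecdysone pathway and nuclear receptors, none was called, with a median of -0.04. Gene006770, best matching the receptor Hr96, which senses foreign compounds in flies, had 51, 14 and 33 reads in mature females and 11 and 17 in mature males. The closest fly hit of Gene016998 is Kr-h1, a zinc finger gene that responds to juvenile hormone in insects. Its Swiss-Prot match is another protein, zinc finger protein 569 at 61.4% identity, and its coding sequence has only 384 bases. Gene016998 was level at 490.4 ± 65.0 and 472 ± 83.2 CPM in males and females. Among 16 circadian clock genes, vri (Gene020664), a repressor in the clock loop, had 23.4 ± 4.20 CPM in females and 9.52 ± 3.16 in males (log2 fold change -1.29, adjusted p = 1, edgeR quasi-likelihood). The 27 genes listed under opsins and arrestins had a median of -0.17. That list also holds genes that are neither, such as norpA (Gene000485), its member with the highest CPM. The ocellar opsin match Gene004564 overlapped between the sexes at 56.5 to 166 CPM in females and 65.7 to 110 in males. The 61 lipid carriers had a median of 0.10, and Gene013816, with a CRAL-TRIO lipid-binding domain, had 56, 18 and 56 reads in mature females and 132 and 202 in males. None of these lists had a called gene.

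**Figure D5:**
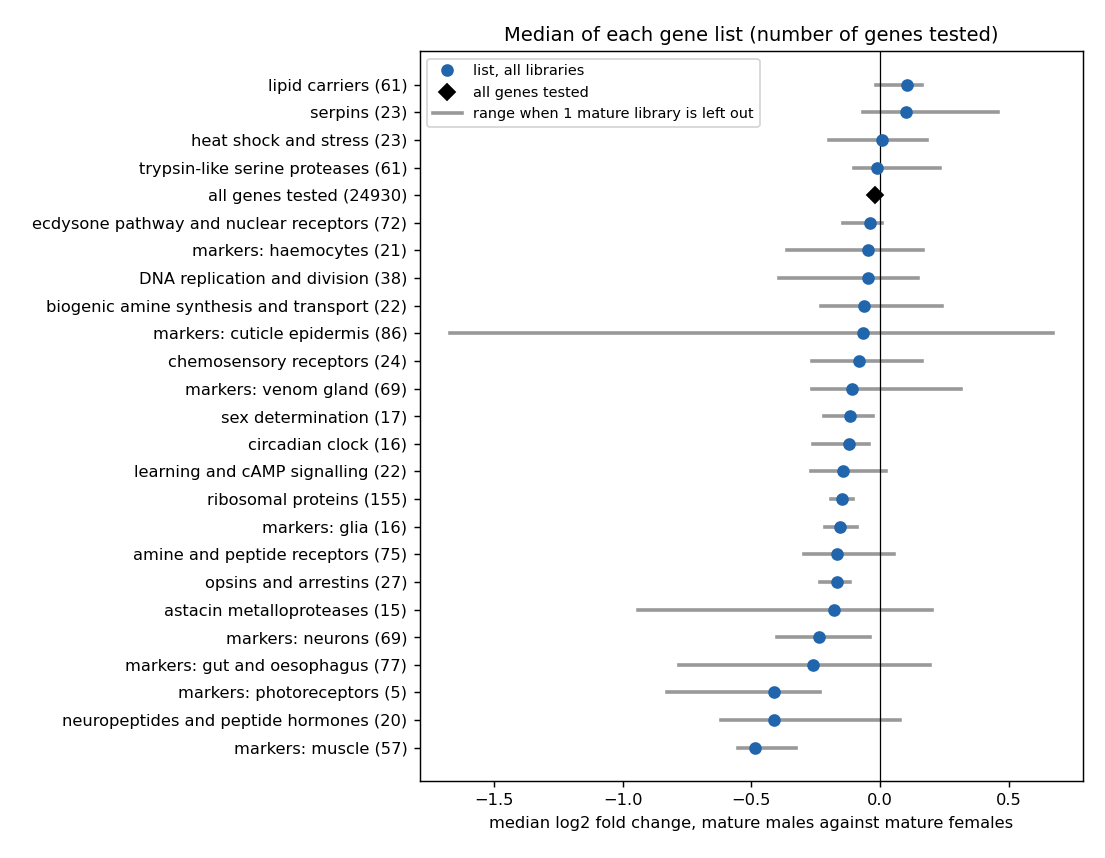
Median log2 fold change of each gene list between mature males and mature females (blue circles), beside the median of all genes tested (black diamond), with the number of genes tested in brackets; grey lines give the range when 1 mature library is left out. Muscle markers lie lowest at -0.48 and keep their direction, whereas among others the lists for neuropeptides and cuticle cross 0.

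The remaining lists had no call by the quasi-likelihood or the likelihood ratio test of edgeR. Serpins, which inhibit serine proteases, had a median of 0.10 over 23 genes, and Gene025811 had 3, 4 and 11 reads in mature females and 4 and 171 in mature males. Astacin metalloproteases had a median of -0.18 over 15 genes, or -0.94 without mature male 2, and Gene007712 was lower in both males, at 2600 and 2653 reads against 15819, 3636 and 7431 in the mature females. Medians were -0.17 for 75 genes listed as amine and peptide receptors and -0.08 for 24 listed as chemosensory receptors. The first list also holds opsins, such as Gene004564 and Gene021872. The second holds matches to glutamate receptors, such as Gene011095 (Nmdar1) and Gene020530 (KaiR1D). Neither median thus describes the named receptors alone. Medians were -0.14 for 22 genes of learning and cAMP signalling, -0.15 for 155 ribosomal proteins and -0.05 for 38 genes of DNA replication. They were 0.01 for 23 heat shock genes and -0.41 for 5 photoreceptor markers. Without mature female 3, medians lay on the other side of 0 for 3 of these lists. They were 0.06 for the amine and peptide receptor list, 0.16 for the chemosensory list and 0.02 for learning and cAMP signalling. Without mature male 2 they were -0.39 for DNA replication, -0.20 for heat shock genes and -0.07 for serpins. The chaperone BiP (Gene017231) was within the female range in mature male 3 and higher in mature male 2, with 6325 and 1220 reads in males 2 and 3 and 1392, 433 and 1153 in females, and its log2 fold change was 1.46 with all libraries and -0.10 without mature male 2.

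Markers of other tissues were compared because brain was cut out of surrounding muscle. Muscle markers took 13.8% of reads on average in mature males, at most 14.7%, and 15.9% to 19.7% in mature females, so the groups did not overlap. Their median log2 fold change was -0.48 (0.18 in immature brains), 49 of 57 lay below 0, and for 27 of 57 both males were below all females, against 7.65% of all genes. None was called, and the myosin heavy chain Gene017604 lay at 29269 ± 2117 CPM (SD, n = 2) in males and 43501 ± 3409 (SD, n = 3) in females. The part of muscle RNA in the other sex differences was not tested. Neuron markers with defined roles were present in all libraries, such as synaptotagmin (Gene000134, picked as a defining marker) with 3238 to 16519 reads per mature library, while no gene matched elav. Haemocyte markers had a median of -0.05, but haemocyanin, the oxygen carrier of spider blood (Gene000605), ranged from 262 reads in mature male 3 to 29423 in mature male 2, with 548 to 3679 in the mature females. Its log2 fold change was 2.53 with all libraries and -3.19 without mature male 2. Markers of glia, cuticle and venom gland had medians of -0.16, -0.07 and -0.11. Without mature male 2 the medians were -1.67 for cuticle, -0.78 for gut and -0.36 for haemocytes. The only call among the 69 venom genes was the protease Gene013936 named above.

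The immature comparison was set beside the mature one. In immature brains the quasi-likelihood test called 8 genes (0.0321%), 7 of them also called in mature brains in the same direction, which was 70% of the mature and 87.5% of the immature calls. The 2 comparisons use different spiders but share the spread estimated over all 4 groups. The difference between the mature and the immature sex contrast was tested as an interaction, and the quasi-likelihood test of edgeR called 0 of 24930 genes, with 798 (3.2%) under 0.05 before adjustment. For the same difference, DESeq2 gave 31 calls (0.136%) and the likelihood ratio test 14 (0.0562%). The proteases had interaction effects of 9.52 (Gene025438, unadjusted p = 0.000425), 9.48 (Gene013935, unadjusted p = 0.000114) and 11.35 (Gene013936, unadjusted p = 0.00014) on the log2 scale in edgeR's quasi-likelihood test. All had an adjusted p of 1, while the likelihood ratio test gave adjusted p of 0.0356, 1.6e-06 and 4.6e-07. For the 7 unmatched called genes the interaction lay between -1.76 and 1.89 on the log2 scale. For the interaction, DESeq2 gave adjusted p of 0.0014 for Gene025438, 5.99e-08 for Gene013935 and 7.8e-06 for Gene013936. A stage difference in the sex contrast of the proteases was therefore called by the likelihood ratio test and DESeq2, and not by the quasi-likelihood test.

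Features of the sequences were counted in the called genes. Of the 10 genes of the quasi-likelihood test, 3 had a match to a known protein (64.5% of all genes did) and 1 had a signal peptide (7.36%). Their coding sequences had a median length of 498 bases, beside 495 over all genes tested. Of the 31 genes called higher in males by the likelihood ratio test, 16 (51.6%) were represented by a sequence from a mature male library, beside 6.73% of all genes. The sequences were assembled from the same libraries as the counts, so this share is not independent of the call. Among the 14 called higher in females, 4 (28.6%) had a signal peptide.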

How the data were processed

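Poly(A) RNA of individual brains was sequenced in libraries that do not mark strand. The authors trimmed reads (Trimmomatic 0.32), assembled each library with Trinity, merged the assemblies with CAP3, clustered predicted coding sequences into genes, aligned reads to them with BWA (0.6.1-r104) and SAMtools, and deposited raw read counts per gene. The authors excluded immature female 1 and adult male 1 for low coverage. Annotation fields were the authors' best matches to known proteins, and 14278 of 25943 annotation lines were shifted by 1 column and moved back. The deposited table of the authors' own differential expression values (fold changes and p-values) was not used. Totals of 3481348 to 11789754 reads per mature library limit precision for genes of few reads.

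Counts of 25922 genes were filtered with filterByExpr (minimum count 10) in edgeR 4.0.16 (limma 3.58.1, R 4.3.3). This left 24930 genes. The quasi-likelihood test with TMM scaling was fitted to 4 group means over all 10 libraries with Benjamini-Hochberg adjustment, and an adjusted p under 0.05 was called. Scripts were tested on simulated data. Labels describe individual spiders, so p-values measure spread between individuals. Ratios with exact intervals cover counting error only. Alternatives were the likelihood ratio test of the study, DESeq2 1.42.0, other size factors and filters, the mature libraries alone, a replicate block, thinning to the smallest total and removal of each library. The newer dispersion estimate and the likelihood ratio test without each mature library were chosen after seeing the data.

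Named genes were those called, the 8 matched genes per direction with the lowest p among non-overlapping groups with a group mean of at least 1 CPM, the lowest p and the highest CPM of each gene list, genes sharing a contig with a called gene, and tra2, DM-domain, fru and Sxl matches. The members and lists were chosen with earlier results of these data known.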

Additional observations from a re-analysis of the deposited data

Results flagged for a closer look

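In 3 of the 72 named genes the sex difference took opposite directions in the mature and the immature groups, with no overlap of the sexes at either stage. The same held for 202 (0.81%) of the 24930 genes tested, and 574 of these did not overlap between the sexes at either stage. Since many named genes were chosen for mature groups that did not overlap, 3 of 72 cannot be set against the share of all genes. For Gene016953, which matches the jockey reverse transcriptase, the mature minus immature difference of the log2 fold changes was -4.2025 (unadjusted p = 0.0001598, edgeR quasi-likelihood), with a mature value of -2.27 and an immature value of 1.94. For Gene018349, which matches histidine decarboxylase, it was 4.0797 (unadjusted p = 0.01427, edgeR quasi-likelihood), on counts of 3, 1 and 1 in mature females and 5 and 12 in mature males. For the myosin heavy chain Gene017604 it was -1.2814 (unadjusted p = 0.01522, edgeR quasi-likelihood), with a mature value of -0.57 and an immature value of 0.71. The adjusted p over all genes was 1 for each in edgeR's quasi-likelihood test.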

How the results depend on the processing

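The count of mature calls was 10 (9 higher in males, 1 in females) with other size factors, with no filter, with a mean of at least 1 CPM and with the newer dispersion estimate, the last chosen after seeing the data. With no filter and with the 1 CPM filter, 5 immature genes were called instead of 8. The likelihood ratio test called 45 (31 and 14) in mature and 141 in immature brains, 14 for the interaction and 5 in gene lists instead of 3. DESeq2 called 57 (40 and 17), 231 and 31. With the 5 mature libraries only, 9 were called, 2 higher in females, but only 6 of them were among the 10, and Gene001740, Gene002151, Gene005439 and Gene014563 were not. Thinned to the smallest total, 6, 0 of them higher in females, were called, with 1 in immature brains.

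Removing each library in turn gave 3 (without mature female 1) to 63 (without mature male 3) mature calls, 2 to 61 higher in males and 0 to 4 higher in females, 2 to 135 in immature brains and 0 to 7 for the interaction. Removing each mature library gave 0 to 3 calls in gene lists. The likelihood ratio test without 1 mature library, chosen after seeing the data, called 29 (20 and 9) without mature female 1, 29 (17 and 12) without mature female 2, 29 (14 and 15) without mature female 3, 44 (38 and 6) without mature male 2 and 226 (208 and 18) without mature male 3. The immature counts were then 109, 106, 154, 136 and 143, and those for the interaction 12, 12, 12, 5 and 120. The cause of these changes was not tested.

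With a replicate block 2 genes were called, both higher in males and 0 higher in females, and 0 in immature brains. Same-numbered deviations correlated at 0.163 for mature male 2 with mature female 2 and 0.173 for mature male 3 with mature female 3, but the spiders share only a number. Pairs of different numbers gave -0.173 to 0.0286. With 2 males, the deviations of 1 male mirror those of the other, so these values are not independent of each other. Genes with few reads in 1 sex cannot be ranked by fold at this depth.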
